A study of Mus musculus with 3 samples.

Results

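The distal ends of the 19 mouse autosomes were examined in whole-genome bisulfite data from spermatogonia, the mitotic germ cells of the testis. On each autosome the last 3 Mb before the largest listed CpG position were divided into 30 windows of 100 kb, counted from that position inwards, and a window was kept when each library held at least 100 calls in it. A call is 1 read of a CpG as methylated or unmethylated, and the methylation level is the fraction of calls that were methylated. All 570 windows passed, out of 23795 autosomal windows with the same number of calls, and the thinnest of the 3 libraries held 127 to 2305 calls per window (median 720.5). For comparison, 22680 interior windows lay more than 3 Mb from both ends of the listed positions. The choice of windows used positions and call numbers only, and no methylation level.

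The 3 libraries came from WT, Pld6 KO and Dnmt3l KO (Dnmt3L KO in the labels) spermatogonia at postnatal day 7, on a C57BL6/J background, sorted by fluorescence for the surface protein EpCAM. KO marks disruption of the named gene, and the study's methods count Pld6+/+, Pld6+/- and Dnmt3l+/- mice as WT. Libraries were made by post-bisulfite adaptor tagging (PBAT), in which DNA is converted before the adaptors are added. Each genotype has 1 sample here, called a library throughout. The study's methods describe biological replicates per genotype, and the sources used here do not say how they relate to these samples. With 1 sample each, a difference between genotypes and a difference between samples cannot be told apart, and no test between genotypes was made.

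Mouse autosomes carry the centromere close to one end, so the last listed positions lie at the opposite, distal end. That end is capped by the telomere, a tandem array of TTAGGG, and the adjoining subtelomere is a mixture of repeats, duplicated sequence and genes. In the male germ line, DNA methylation is erased in the embryo and written again in prospermatogonia by de novo methyltransferases, for which DNMT3L is a cofactor without catalytic activity. PLD6 is a mitochondrial protein needed to make piRNAs, the small RNAs that direct methylation to certain retrotransposons. The comparisons ask how far the ends differ from the rest of the same chromosomes in each genotype.

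The assembled sequence (GRCm38, the assembly that mm10 names) reached the telomeric repeat on nearly all of these ends. TTAGGG occurred in the last 2 kb of 18 of the 19 autosomes, 6 to 114 times where present (median 42), and chromosome 4 had 0. The reverse complement, CCCTAA, was present in 5 of these stretches, at most 2 times. At least 6 copies of TTAGGG or of CCCTAA were found in 18 of 19 last stretches. They were found in 0.0606% of the 1197622 autosomal stretches of 2 kb without unknown bases. The cutoff of 6 is the lowest count among the ends with TTAGGG. With at least 11 copies the values were 17 of 19 and 0.0225%. The last CpG with a call lay 140 to 2091 bases before the last assembled base (median 401). Where these CpGs lie relative to the repeat was not tested. On chromosome 14 that gap was 399 bases, too short to hold the 114 copies of TTAGGG, so some copies lie further inside.

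CpG density at the outermost listed CpGs varied widely between ends. The sequences shown here, chosen after their values were seen, are 250 bases that end just past the last listed CpG. They come from the autosomes with the highest and the lowest WT level in the last 1 kb, among the 4 with at least 15 calls there in every library, with CG and TTAGGG in capitals:
chr11:121982010-121982259: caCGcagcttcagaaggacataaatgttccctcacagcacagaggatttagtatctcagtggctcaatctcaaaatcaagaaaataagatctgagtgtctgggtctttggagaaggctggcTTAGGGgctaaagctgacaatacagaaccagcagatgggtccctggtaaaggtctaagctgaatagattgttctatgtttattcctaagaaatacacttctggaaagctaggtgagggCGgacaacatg
chr10:130592663-130592912: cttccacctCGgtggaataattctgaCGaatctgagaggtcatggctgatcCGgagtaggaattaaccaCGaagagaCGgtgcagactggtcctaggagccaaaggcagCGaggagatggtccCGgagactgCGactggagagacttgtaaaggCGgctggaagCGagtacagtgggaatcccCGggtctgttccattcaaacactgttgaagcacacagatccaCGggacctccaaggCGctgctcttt
The chromosome 11 stretch holds 2 CG, with 3 of 3 calls methylated in WT, while Pld6 KO had 5 of 6 and Dnmt3l KO had 0 of 2. The chromosome 10 stretch is dense, with 13 CG, and had 5 of 41 calls methylated in WT, while Pld6 KO had 4 of 16 and Dnmt3l KO had 1 of 31. Over the whole last 1 kb the levels were 0.930, 0.897 and 0.118 on chromosome 11 and 0.136, 0.188 and 0.0159 on chromosome 10, in the order WT, Pld6 KO, Dnmt3l KO, which is kept throughout.

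The libraries held 43757722, 64076569 and 19289688 calls, which is 3.01, 3.95 and 1.86 calls per listed site, and Dnmt3l KO is therefore the least precise. The deleted gene had no call in its own library. Exon 1 of Pld6 (chr11:59787218-59787657, 37 CpGs) had 90, 0 and 40 calls, and exons 4 to 9 of Dnmt3l (chr10:78050598-78054016, 46 CpGs) had 68, 150 and 0. Imprinted loci had the pattern of male germ cells in WT and Pld6 KO, with a level of 0.859 and 0.884 in the paternally methylated region 2 to 4 kb upstream of H19, and 0.0726 and 0.0377 at the maternally methylated start of Peg3. The start of Mest was at 0.02 in WT and 0.122 in Pld6 KO, and the annotated start of Snrpn had only 2, 7 and 0 calls. In Dnmt3l KO the H19 region was at 0.148.

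Over their whole length, the last 3 Mb were methylated almost as strongly as chromosome interiors. The mean window level was 0.717 ± 0.131 in WT (SD over 570 windows), while Pld6 KO was at 0.726 ± 0.118 and Dnmt3l KO at 0.292 ± 0.123. The interior had 0.746 ± 0.113, 0.746 ± 0.107 and 0.282 ± 0.114. Single windows ran from 0.140 to 0.931 in WT, while those of Pld6 KO spanned 0.189 to 0.908 and those of Dnmt3l KO spanned 0.0263 to 0.662. Over all calls of the end windows, WT exceeded Dnmt3l KO by 0.369 (95% interval 0.367 to 0.370), less than the 0.402 of the interior. Pld6 KO exceeded WT slightly, with a difference WT minus Pld6 KO of -0.0274 (-0.0285 to -0.0263), compared with -0.0199 in the interior. As a mean of site levels, in which each CpG counts once whatever its calls, the sign turned, at 0.00246. These intervals (Newcombe) and the Wilson intervals of single levels cover counting error only, and calls of the same read are not independent.

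Windows were then compared with interior windows of the same chromosome whose CpG density was within 10%, of which there were a median of 172 per end window. Averaged over each autosome, the 3 Mb lay below like windows by a mean of -0.0254 ± 0.0432 in WT (SD over 19 autosomes, 13 below) and -0.0177 ± 0.0410 in Pld6 KO (12 below). In Dnmt3l KO the mean difference was 0.00931 ± 0.0537, with 8 autosomes below. When like windows were matched on GC content in place of CpG density, the Dnmt3l KO value turned to -0.0108, with 13 of 19 below. None of these averages over 3 Mb exceeded its own spread between autosomes, and the averages hide a steep change near the tip.

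Levels were lower towards the chromosome end in all 3 genotypes. In the last 100 kb the mean level over the 19 autosomes was 0.608 ± 0.112 in WT, while Pld6 KO was at 0.597 ± 0.112 and Dnmt3l KO at 0.157 ± 0.0836. Between 2 and 3 Mb from the end it was 0.740 ± 0.0496, 0.756 ± 0.0410 and 0.329 ± 0.0866. The last 1 Mb was lower than the stretch from 2 to 3 Mb by a mean of -0.0580 ± 0.0880 in WT (12 of 19 autosomes), with -0.0761 ± 0.0748 for Pld6 KO (15 of 19) and -0.0881 ± 0.0801 for Dnmt3l KO (16 of 19). In proportion to WT the gradient was steepest in Dnmt3l KO, whose level was 0.259 of the WT level in the last 100 kb and 0.445 of it at 2 to 3 Mb. Interior windows of like CpG density changed in the same direction. They were at 0.765 in WT and 0.265 in Dnmt3l KO for the last 100 kb, and at 0.732 and 0.309 for 2 to 3 Mb. The part of density in this ratio was not tested.

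CpG density was lower at the tip too, with 6.99 CpG per kb in the last 100 kb and 10.2 between 2 and 3 Mb. In the interior WT had 0.745 in windows under 4 CpG per kb, 0.765 at 4 to 6, 0.772 at 6 to 8, 0.759 at 8 to 10, 0.724 at 10 to 14 and 0.642 at 14 or more. Against like windows of the same chromosome the last 100 kb lay lower by -0.157 ± 0.113 in WT, on 19 of 19 autosomes. Pld6 KO lay lower by -0.161 ± 0.119, on 17, and Dnmt3l KO by -0.107 ± 0.0920, on 16. At 100 to 200 kb the differences were -0.122, -0.134 and -0.0830, with 17 of 19 autosomes below in each library. Averaged over the last 500 kb they were -0.0935, -0.0974 and -0.0467. Further inside the means of Dnmt3l KO were 0.00529 ± 0.0827 at 0.5 to 1 Mb and 0.0271 ± 0.0727 at 1 to 2 Mb, where WT was at -0.0512 ± 0.0836 and -0.0134 ± 0.0637. Each mean was smaller than the SD of single autosomes, which is not an error of the mean. At 0.5 to 1 Mb WT lay below like windows on 15 of 19 autosomes and Dnmt3l KO on 8. At 1 to 2 Mb the counts were 11 and 7. From 2 to 3 Mb the mean differences were 0.00985 ± 0.0470, 0.0160 ± 0.0433 and 0.0221 ± 0.0571, all smaller than the spread between autosomes, and 8, 12 and 13 of 19 autosomes lay above like windows. The separate account of the last 100 kb was added after its values were seen.

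**Figure D1:**
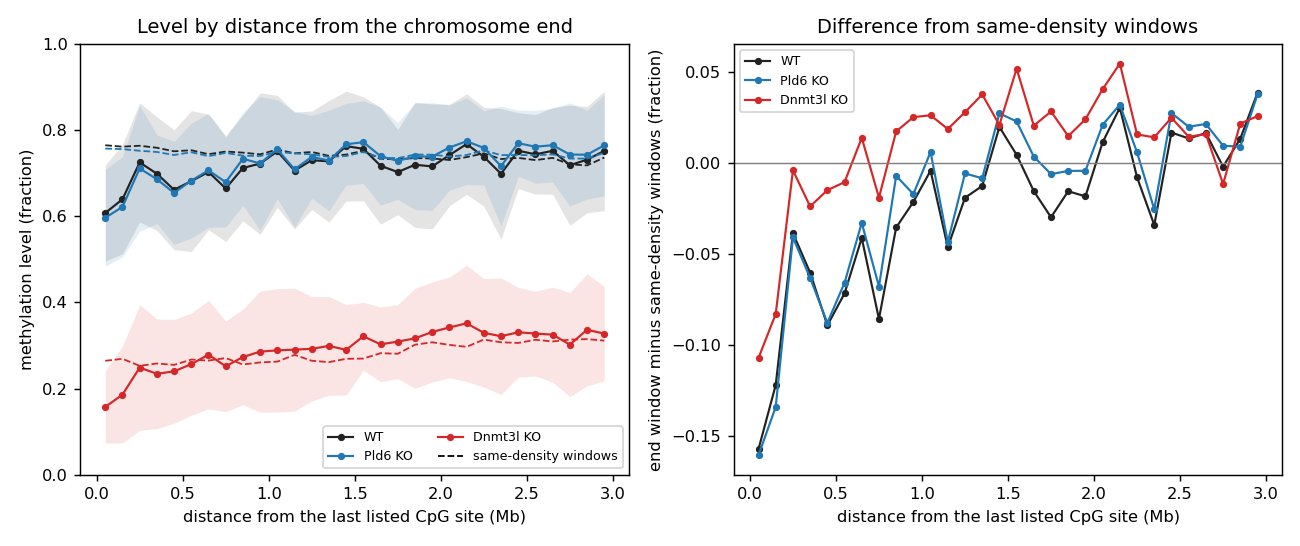
Methylation level (fraction) of 100-kb windows against distance from the last listed CpG site in Mb, as means over 19 autosomes with shading of 1 SD, and dashed lines for interior windows of the same chromosome and CpG density (left), and the difference from those windows (right). WT goes from 0.740 at 2 to 3 Mb to 0.608 in the last 100 kb, where all 3 libraries lie lowest against like windows, at -0.157, -0.161 and -0.107.

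Other properties changed along the same 3 Mb. Repeat-masked bases made up 45.8% of the last 100 kb, 27.8% of the stretch from 2 to 3 Mb and 33.2% of the interior, genes covered 27.9% and 48.0%, and GC content was 40.3% and 44.8%. Coverage was thinner at the tip, with 1.67, 2.41 and 0.792 calls per CpG in the last 100 kb and 2.28, 3.40 and 0.971 at 2 to 3 Mb. When like windows were required to match the masked share within 10 percentage points as well, the last 100 kb still lay lower by -0.140, -0.129 and -0.0640. The part of coverage in the result was not tested.

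Single ends differed strongly. In the last 100 kb WT ran from 0.308 (0.287 to 0.330) on chromosome 9 and 0.366 on chromosome 19 to 0.741 on chromosome 7, and Pld6 KO had the same order at its extremes, with 0.316, 0.368 and 0.772. Dnmt3l KO was lowest on chromosome 14, at 0.0614 (0.0405 to 0.0920), and highest on chromosome 7, at 0.450 (0.420 to 0.481). The next highest Dnmt3l KO level was 0.255, on chromosome 6, so chromosome 7 stood apart in that library, where like windows were at 0.351. In WT the next highest ends, chromosomes 5 and 2, were close to it, at 0.710 and 0.705, and in Pld6 KO chromosome 6 was at 0.760. Only chromosomes 3, 6 and 7 lay above like windows in Dnmt3l KO, only 6 and 7 in Pld6 KO and none in WT. WT exceeded Dnmt3l KO on 19 of 19 ends, by 0.450 ± 0.105, from 0.197 on chromosome 9 to 0.582 on chromosome 2. WT and Pld6 KO differed by less than the spread between ends, at 0.0111 ± 0.0644, with WT higher on 10 autosomes and lower on 9.

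**Figure D2:**
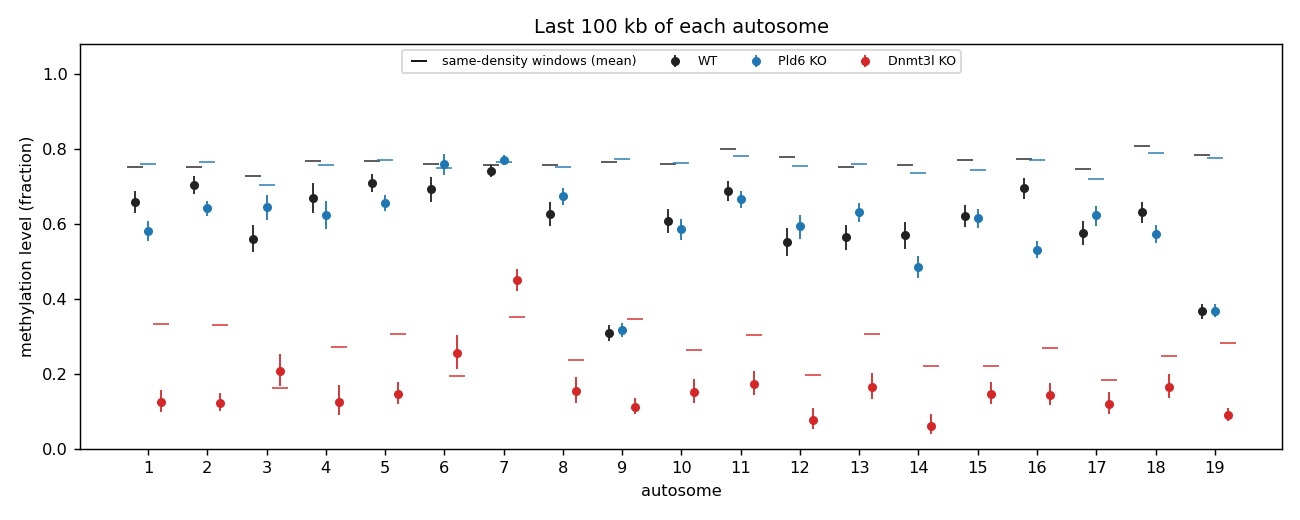
Methylation level (fraction) of the last 100 kb of each autosome in the 3 libraries, with 95% Wilson intervals for counting error, and bars for the mean of interior windows of like CpG density. With all sites kept, chromosomes 9 (0.308 in WT) and 19 (0.366) lie lowest and chromosome 7 (0.741 in WT, 0.450 in Dnmt3l KO) highest, and each WT point lies below its bar.

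Some CpGs in these windows carried far more calls than the rest, and on 1 end they set the level. On chromosome 19, 8 sites with more than 20 calls in a library held 1064, 1432 and 381 calls, which was 48.0%, 45.3% and 38.8% of all calls of the last 100 kb, at levels of 0.0291, 0.0468 and 0.00787. Without such sites the last 100 kb of chromosome 19 was at 0.678, 0.635 and 0.142, in the middle of the other autosomes. Chromosome 2 then rose from 0.705 to 0.758 in WT, above the 0.741 of chromosome 7. On chromosome 16 Pld6 KO rose from 0.531 to 0.588. Chromosome 9 had 0 such sites, and its low level stayed at 0.308. Over all autosomes, leaving these sites out changed the WT difference from like windows to -0.139, with 18 of 19 autosomes below.

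Chromosomes 7, 9 and 19 were resolved into bins of 10 kb, a view chosen after their levels were seen. On chromosome 9 the low level came from 3 adjoining bins 50 to 80 kb from the end, with WT levels of 0.197, 0.0958 and 0.049 at 184, 107 and 227 CpGs, over the gene models LOC108167320, Gm20783, LOC108167694 and 4930526I15Rik. Dnmt3l KO was at 0.0604, 0.0132 and 0.0187 there. The bins on either side were methylated in WT, at 0.848 and 0.929. On chromosome 19 the bin at 60 to 70 kb was at 0.0759, 0.0736 and 0.022, with up to 183 calls at a single site, and the bin at 100 to 110 kb was at 0.086, 0.0503 and 0.0155 around the start of Csf2ra, which encodes the alpha chain of the GM-CSF receptor. On chromosome 7 the 7 bins from 60 to 130 kb, within Tpcn2, a gene for an endolysosomal cation channel, were at 0.881 to 0.931 in WT and at 0.538 to 0.702 in Dnmt3l KO. Chromosome 7 thus kept a long, highly methylated gene body close to the telomere, whereas the bin with the start of Mrgprf, an orphan receptor of the MAS-related family, was at 0.316, 0.324 and 0.0933.

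**Figure D3:**
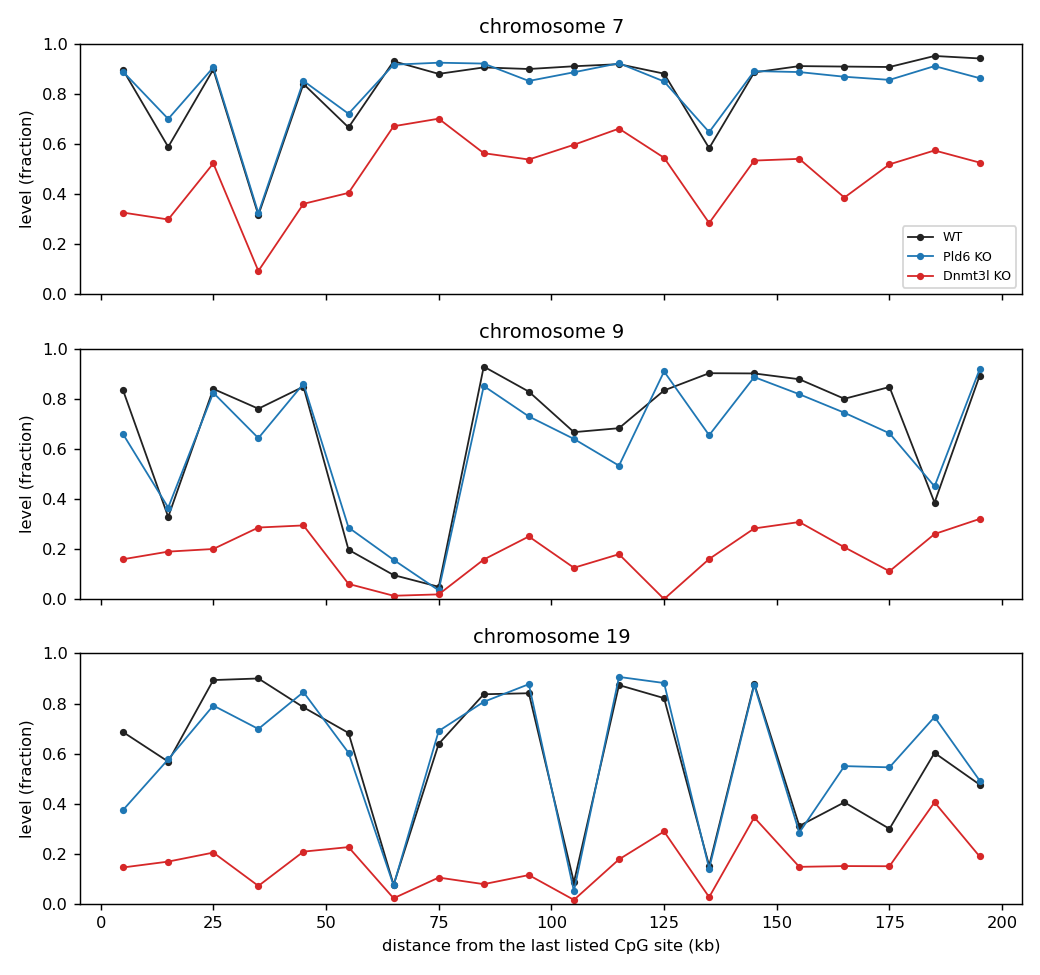
Methylation level (fraction) in 10-kb bins over the last 200 kb of chromosomes 7, 9 and 19 in the 3 libraries, against distance from the last listed CpG site in kb. Chromosome 9 has a trough 50 to 80 kb from the end (WT 0.197, 0.0958 and 0.049), chromosome 19 has troughs at 60 to 70 and 100 to 110 kb (0.0759 and 0.086), and chromosome 7 is at 0.881 to 0.931 in WT from 60 to 130 kb.

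In the last 10 kb the ends remained methylated in WT and Pld6 KO. Their pooled levels were 0.618 and 0.564, and Dnmt3l KO was at 0.106. By autosome WT ran from 0.278 to 0.956 (median 0.712), whereas Pld6 KO spanned 0.306 to 0.889 (median 0.641) and Dnmt3l KO spanned 0 to 0.327 (median 0.0909). Dnmt3l KO was below WT on 19 of 19 ends, whereas Pld6 KO was below WT on 11 and above it on 8. In the last 1 kb, Pld6 KO was at 0.386 (0.350 to 0.424, 673 calls) and WT at 0.567 (0.514 to 0.617, 353 calls). That gap rested largely on chromosome 16, where Pld6 KO had 230 calls, 29 of them methylated, and up to 111 calls at 1 site. Without chromosome 16 the last 1 kb was at 0.581, 0.521 and 0.0488, and the intervals of WT (0.528 to 0.632) and Pld6 KO (0.475 to 0.568) overlapped.

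A decrease of 0.3 or more, the size that the study calls severe for retrotransposons, was used to count windows. In Dnmt3l KO 445 of 570 end windows (78.1%) were lower than WT by at least 0.3, against 90.1% of all autosomal windows and 88.8% of windows of like density. The share was thus below the background, and it was so in the last 500 kb with 84.2%, where like windows had 94.3%, at 0.5 to 1 Mb with 75.8% (91.6%), at 1 to 2 Mb with 74.2% (88.5%) and at 2 to 3 Mb with 80% (84.8%). In the last 100 kb 16 of 19 windows were counted, and like windows reached 96.9%. The next 100 kb was the exception, with 18 of 19 (94.7%) and 93.0% of like windows. The counts differed between chromosomes. All 30 windows were counted on chromosomes 5 and 18, but only 9 on chromosome 11, 14 on chromosomes 7 and 15 and 17 on chromosome 2. A window with a WT level under 0.3 cannot be counted, whatever its level in Dnmt3l KO. In Pld6 KO 0 of 570 end windows were lower by 0.3, and 0% of all autosomal windows.

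The WT minus Pld6 KO difference was small, and its mean over autosomes changed sign along the ends. It was 0.0125 ± 0.0312 in the last 500 kb and -0.0160 ± 0.0175 at 2 to 3 Mb. Over all calls the sign did not change, with WT at 0.651 and Pld6 KO at 0.654 in the last 500 kb. At 2 to 3 Mb these were at 0.715 and 0.743. Pld6 KO was below WT in 52 of 95 windows of the last 500 kb (54.7%) and in 54 of 190 windows at 2 to 3 Mb (28.4%), with 38.1% over all 570 and 46.6% in the interior. At least 0.1 separated the libraries in 20 of the 570 end windows, with Pld6 KO lower in 12 and higher in 8. Of all 23795 autosomal windows, Pld6 KO was lower by that much in 668 and higher in 106. The difference was larger where more of the window is repeat-masked. In the 55 end windows with a masked share of at least 50%, WT exceeded Pld6 KO by 0.0526 ± 0.05, and interior windows of that share gave 0.0524 ± 0.0505. In the 69 end windows with a masked share under 20% the difference was -0.0195 ± 0.0259.

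CpGs between genes were therefore divided by whether the reference base is repeat-masked, a division made after the window values were seen, with sites of more than 20 calls left out. In the last 500 kb masked CpGs were at 0.753, 0.683 and 0.176, so that WT exceeded Pld6 KO by 0.0695 (0.0616 to 0.0773). Unmasked CpGs of the same stretch were at 0.718, 0.724 and 0.247, a difference of -0.00596. The masked difference was 0.0352 at 0.5 to 1 Mb, 0.0370 at 1 to 2 Mb, 0.0250 at 2 to 3 Mb and 0.0490 in the interior. The interior value depended on the sites left out, and with all sites kept it was 0.000863, whereas the last 500 kb then gave 0.0749. At sites with a call in all 3 libraries the last 500 kb gave 0.0656, the stretch at 2 to 3 Mb gave 0.00613 (-0.00255 to 0.0148), an interval that includes 0, and the interior gave 0.0375. By autosome, WT exceeded Pld6 KO at masked CpGs of the last 500 kb on 17 of 19, by 0.0698 ± 0.0493, and at 2 to 3 Mb on 15 of 19, by 0.0226 ± 0.0361. At unmasked CpGs WT was higher on 12 of 19 autosomes in the last 500 kb and on 0 of 19 at 2 to 3 Mb. The reads were mapped to unique positions, so young, near-identical repeat copies are under-represented in all of these values.

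**Figure D4:**
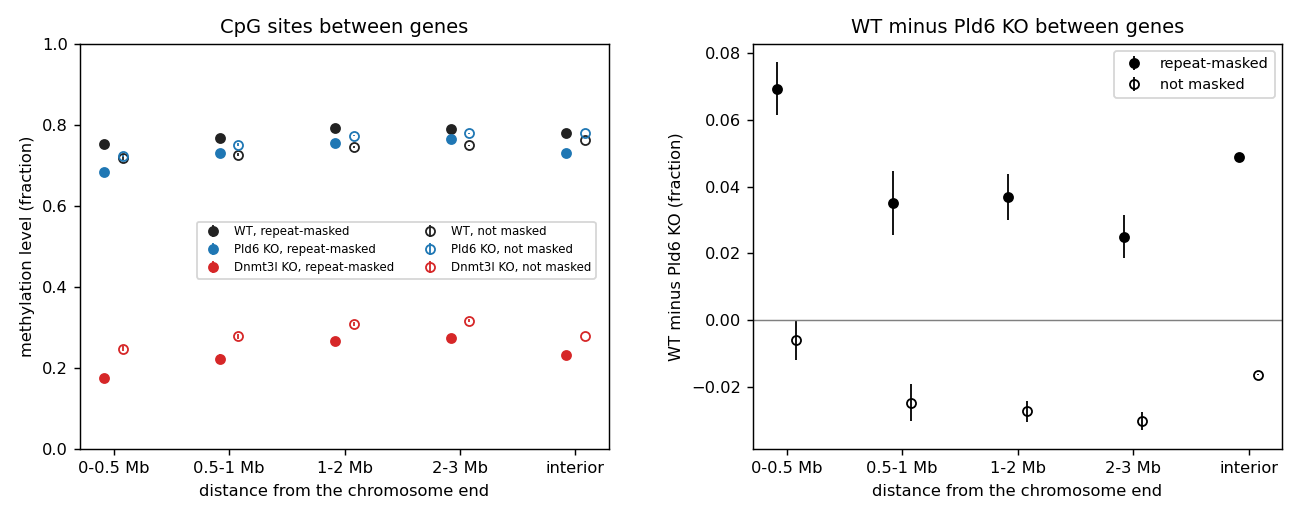
Level (fraction) of CpG sites between genes by distance from the end, repeat-masked (filled) or not (open), in the 3 libraries (left), and WT minus Pld6 KO with 95% Newcombe intervals for counting error (right). Sites with more than 20 calls are left out. The masked difference is 0.0695 in the last 500 kb, 0.0250 at 2 to 3 Mb (0.00613 at sites called in all 3 libraries) and 0.0490 in the interior (0.000863 with all sites kept), while unmasked sites lie at or below 0, from -0.00596 to -0.0303.

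Levels at the ends differed with CpG density. In WT the mean fell with each step in density, from 0.784 in end windows under 4 CpG per kb to 0.766 at 4 to 6, 0.694 at 10 to 14 and 0.605 at 14 or more. Dnmt3l KO was at 0.221 under 4 CpG per kb and 0.214 at 4 to 6, reached 0.348 at 10 to 14 and was at 0.318 at 14 or more. Pld6 KO went from 0.781 in the sparsest to 0.649 in the densest windows. GC content, masked share and gene share vary with density, and their part was not tested. Across the 570 windows density correlated with the WT minus Dnmt3l KO difference at r = -0.688, and across interior windows at r = -0.722. These are descriptions over windows that share libraries, and adjoining windows are not independent. Within a density group the last 1 Mb lay below the interior in WT from 4 CpG per kb upwards. At 6 to 8 CpG per kb the last 1 Mb was at 0.680 ± 0.120 and the interior at 0.772 ± 0.102, and at 8 to 10 the values were 0.631 ± 0.158 and 0.759 ± 0.106.

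Among site classes, the sequence between genes and the gene bodies both carried the lower level of the tip. Between genes the last 100 kb was at 0.675, 0.629 and 0.147, all end windows together at 0.748, 0.760 and 0.288, and the interior at 0.718, 0.730 and 0.255. The interior value depended on sites with more than 20 calls. At masked CpGs between genes the interior WT level was 0.618 with all sites and 0.780 without them. Unmasked CpGs between genes were at 0.639, 0.627 and 0.150 in the last 100 kb. They were at 0.741, 0.767 and 0.301 in all end windows and at 0.758, 0.776 and 0.277 in the interior. Gene bodies were at 0.730, 0.751 and 0.307 in the last 100 kb and at 0.813, 0.823 and 0.425 in all end windows, which for gene bodies is close to the interior (0.819, 0.825 and 0.410). The last 100 kb also had a different mixture, with 71.4% of its CpGs between genes and 20.9% in gene bodies, against 44.5% and 44.3% in all end windows. Promoters without high CpG density were at 0.199, 0.241 and 0.0725 at the ends. CpG-dense promoters were almost free of methylation, at 0.00672, 0.0158 and 0.00375.

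The Pld6 KO value of CpG-dense promoters was raised by 1 gene start. Within 1 kb of the start of Tmem267, a transmembrane protein gene 0.833 Mb from the end of chromosome 13, the CpG-dense sites were at 0.323 in WT (359 calls), while Pld6 KO was at 0.594 (1105 calls) and Dnmt3l KO at 0.0719 (167 calls). This start was singled out after its values were seen. Of 9033 such starts on the autosomes with at least 20 calls in each library, 0 had a larger excess of Pld6 KO over WT. Of the 314 starts at the ends, 3 (0.955%) were above 0.05 in WT, and of all 9033, 55 (0.609%). The methylation lay downstream of the start. The 500 bases before it were at 0, 0.116 and 0, the first 500 bases after it at 0.157, 0.486 and 0.0448, and the next 500 bases (chr13:119488586-119489085) at 0.423, 0.660 and 0.09. Calls were unequal as well, with 89, 545 and 67 in the first 500 bases, and the part of that in the difference was not tested.

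The last protein-coding RefSeq gene of each autosome lay 0.204 to 194.6 kb from the last listed CpG (median 17.9 kb), and its start was read over 1 kb on either side. Of the 19 starts, 12 were below 0.2 in WT, 5 above 0.7 and 2 between. For comparison, 17.9% of 17771 autosomal protein-coding starts exceeded 0.7 in WT, where every library had 10 or more calls. No such minimum was set for the 19. The autosomal share below 0.2 was not counted, so whether low starts are more frequent among the last genes was not tested. The 12 low ones reached at most 0.130 in WT, while their highest was 0.184 for Pld6 KO and 0.0465 for Dnmt3l KO. These distances are to the near edge of the gene, and the low starts themselves lay 18.01 to 194.6 kb inside. Wls, which encodes the carrier that brings WNT proteins to the cell surface, ends 0.643 kb from the last CpG of chromosome 3, and its start, 99.7 kb inside, was at 0.00690, 0 and 0. Gm21814, a predicted gene, ends 0.204 kb from the last CpG of chromosome 6, and its start, 20.3 kb inside, was at 0.00813, 0.0575 and 0.

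The methylated starts had few CpGs. Mrgprd, a receptor of sensory neurons, was at 0.915, 0.897 and 0.533, and Mucl2, a mucin-like gene, at 0.907, 0.949 and 0.207. Vmn2r87, a vomeronasal receptor gene, was at 0.875, 0.813 and 0.333 with 16, 16 and 6 calls, and Tcstv3, a gene of the early embryo's Tcstv cluster, at 0.786, 0.778 and 0.167 with 14, 18 and 12. Gm14496 was at 1, 0.909 and 0.364 with 15, 22 and 11 calls. Between the extremes, Gm9631 was at 0.209, 0.0769 and 0, and Vmn2r129 at 0.450, 0.375 and 0. Vmn2r129, Gm14496 and Tcstv3 belong to families of similar copies, so their reads may be shared between copies.

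The promoters of the 2 last genes with the lowest and the 2 with the highest WT level, among those with at least 20 calls in each library, show the contrast in CpG number. They are RefSeq sequences (GRCm38.p6) from 250 bases before to 50 bases after the start, in the direction of the gene, with CG in capitals, and 17 of the 19 last genes had one:
Wls, chr3:159839400-159839699, plus strand: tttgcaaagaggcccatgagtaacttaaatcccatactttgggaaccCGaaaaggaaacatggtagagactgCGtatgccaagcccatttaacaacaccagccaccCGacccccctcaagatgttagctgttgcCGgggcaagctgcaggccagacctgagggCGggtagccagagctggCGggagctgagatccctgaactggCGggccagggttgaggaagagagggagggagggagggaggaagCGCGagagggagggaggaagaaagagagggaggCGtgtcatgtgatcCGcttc
Gm21814, chr6:149565832-149566131, plus strand: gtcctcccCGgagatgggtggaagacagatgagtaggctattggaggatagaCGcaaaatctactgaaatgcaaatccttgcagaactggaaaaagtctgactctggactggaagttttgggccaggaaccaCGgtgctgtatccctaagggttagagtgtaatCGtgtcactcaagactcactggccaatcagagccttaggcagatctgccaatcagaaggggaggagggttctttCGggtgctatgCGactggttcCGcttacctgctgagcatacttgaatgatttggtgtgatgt
Mrgprd, chr7:145314585-145314884, plus strand: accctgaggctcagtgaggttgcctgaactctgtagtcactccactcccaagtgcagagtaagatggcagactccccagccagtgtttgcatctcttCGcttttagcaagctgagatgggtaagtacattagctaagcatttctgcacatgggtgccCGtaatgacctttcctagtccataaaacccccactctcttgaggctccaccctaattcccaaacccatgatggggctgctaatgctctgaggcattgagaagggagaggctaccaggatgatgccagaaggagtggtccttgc
Mucl2, chr15:103899263-103899562, minus strand: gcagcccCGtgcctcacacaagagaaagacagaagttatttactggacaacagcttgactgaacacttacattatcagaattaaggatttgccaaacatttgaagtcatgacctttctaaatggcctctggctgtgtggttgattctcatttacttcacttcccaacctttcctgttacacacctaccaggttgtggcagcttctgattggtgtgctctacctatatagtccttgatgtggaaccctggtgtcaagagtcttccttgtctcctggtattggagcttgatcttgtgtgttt
The 11 CG of the Wls promoter had 32, 43 and 6 calls and the 7 of Gm21814 had 30, 19 and 3, none of them methylated. The 2 CG of Mrgprd had 6 of 7, 9 of 10 and 3 of 5 calls methylated. The single CG of Mucl2 had 3 of 4, 4 of 4 and 2 of 4.

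The end windows with the highest Dnmt3l KO level lay in gene bodies. Both highest were in Rptor, which encodes the raptor subunit of the mTORC1 kinase complex, 2.1 to 2.3 Mb from the end of chromosome 11. They were at 0.917, 0.898 and 0.662 and at 0.913, 0.908 and 0.645, where windows of like density were at 0.741, 0.753 and 0.375 for the first. The third, on chromosome 14 with Ubac2, Gpr18 and Gpr183, was at 0.887, 0.888 and 0.611. The lowest Dnmt3l KO levels were of another kind. A window without a protein-coding gene 0.4 to 0.5 Mb from the end of chromosome 18 was at 0.634, 0.562 and 0.0263, and a window over the olfactory receptor genes Olfr790, Olfr791, Olfr792 and Olfr794 on chromosome 10 at 0.759, 0.657 and 0.0338. For the chromosome 18 window, windows of like density were at 0.813, 0.791 and 0.242, so it lay below them in every library. The Hoxc window of chromosome 15 was low in every library too, at 0.140, 0.189 and 0.0292.

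The lowest WT windows also included that of Zic2 and Zic5, developmental zinc finger genes, with Clybl and Pcca on chromosome 14, at 0.219, 0.261 and 0.0877. The other was the second window of chromosome 19, with Csf2ra and Zfp950, at 0.273, 0.275 and 0.0907. It was at 0.340 in WT without sites of more than 20 calls. With all sites kept, the largest excess of WT over Pld6 KO was in a window within Fgf14, the last coding gene of chromosome 14. It was at 0.851 (0.812 to 0.883) against 0.663 (0.627 to 0.698). The last window of chromosome 16 followed at 0.694 against 0.531, and a window of chromosome 17 without coding genes at 0.830 against 0.685. In the chromosome 16 window Pld6 KO was at 0.588 without sites of more than 20 calls, which narrowed the gap to WT. The largest excess of Pld6 KO was in the window of Atp5g2 and Calcoco1 on chromosome 15, at 0.563 against 0.446, then in that of Nanos1, Eif3a and Dennd10 on chromosome 19, at 0.522 against 0.409, and in one within Plxna2 on chromosome 1, at 0.646 against 0.536. The 6 windows were chosen by this difference, so it is given as a description.

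Several well-known gene groups lie within these 3 Mb. The imprinted domain of H19 and Kcnq1ot1 is 1.88 to 2.76 Mb from the end of chromosome 7. Beyond the methylated region upstream of H19, the starts of this domain were low: Kcnq1ot1, whose start is methylated on the maternal allele in somatic cells, was at 0.0780, 0.0700 and 0.0154, and Cdkn1c, a cell-cycle inhibitor, at 0.0317, 0.0479 and 0. The H19 start itself was at 0.150, 0.134 and 0. Igf2, which encodes a growth factor, had 8, 14 and 2 calls at its start, too few for a level.

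The Hoxc genes, which pattern the body axis, lie about 1 Mb from the end of chromosome 15 (chr15:102921131-103036856). Over all 2484 CpGs the cluster was at 0.123, 0.171 and 0.0300. Of its 9 starts, 8 were below 0.05 in WT, and the ninth, Hoxc4, was at 0.727, 0.769 and 0.286 with 22, 26 and 7 calls. The share of all starts below 0.05 was not counted. Such low levels are common, since CpG-dense sites exceeded 0.05 in WT at only 0.609% of 9033 autosomal starts with at least 20 calls in each library. The 24 keratin genes further inside (chr15:101348315-102032026) differed from the Hoxc genes, with 0.744, 0.769 and 0.362 over the region. All 24 keratin starts were lower in Dnmt3l KO than in WT, as were 83.9% of the 17771 protein-coding starts of the autosomes with at least 10 calls in each library, and 12 of the 24 were lower by at least 0.3, against 20% of those starts. In Pld6 KO 13 of the 24 were higher than in WT, against 59.3% of all starts, and 0 were lower by 0.3, against 0.191%. WT levels of the 24 starts ran from 0.0335 to 0.953, with 8 above 0.7, against 17.9% of all starts. Dnmt3l KO levels of the 24 ran from 0 to 0.615. Among them, Krt5, a keratin of basal epidermal cells, was at 0.890, 0.886 and 0.257, and Krt1, one of differentiating epidermis, at 0.914, 0.885 and 0.286. The starts of the simple-epithelial keratins Krt8 and Krt18 were low in all libraries, at 0.179, 0.189 and 0.0741 and at 0.0615, 0.0694 and 0.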

How the data were processed

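Bisulfite sequencing by PBAT was analysed in 3 libraries of sorted spermatogonia, 1 per genotype (WT, Pld6 KO, Dnmt3l KO), grouped by the genotype in the labels. The authors trimmed both ends and low-quality stretches of single-end reads and mapped them with Bismark (version not given in the sources used here) to unique regions of mm10. Removal of duplicate reads is not stated. The authors deposited, for each CpG, the counts of methylated and unmethylated calls and the methylation fraction, which equals their ratio. All listed CpGs were given on the plus strand, and no strands were merged here. The paper does not state whether calls of both strands were merged before deposit.

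Levels were computed from the deposited counts as methylated calls over all calls, with 95% Wilson and Newcombe intervals (Python 3.11.15, numpy 2.4.6, scipy 1.17.1, pandas 2.3.3). The last 3 Mb of each autosome gave 30 windows of 100 kb, kept with at least 100 calls per library. Each was set against interior windows of the same chromosome within 10% of its CpG density (at least 5; 568 of 570 windows had them). Genes, promoters, repeat masking and sequence came from RefSeq GRCm38. A site was CpG-dense where its 500-base tile had a GC fraction above 0.55 and an observed-to-expected CpG ratio above 0.65. Named genes were the last coding gene of each autosome, those of the most extreme windows, and the H19, Hoxc and keratin loci. Members, lists and rules were chosen with earlier results of these data known. With 1 library per genotype no p-value was computed. Interval coverage and the window comparison were tested on simulated data. Alternatives changed the number of calls, window size, averaging, sites and matching.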

Additional observations from a re-analysis of the deposited data

Results flagged for a closer look

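The position of the ends relative to interior windows of like CpG density had the opposite sign in WT and in Dnmt3l KO in 3 comparisons, each over 19 autosomes and 1 library per genotype. Over all 3 Mb, WT lay below like windows by -0.0254 and Dnmt3l KO above them by 0.00931, a gap of -0.0347. From 0.5 to 1 Mb the values were -0.0512 and 0.00529, a gap of -0.0564. From 1 to 2 Mb they were -0.0134 and 0.0271, a gap of -0.0406. The difference was not tested. It was not uniform: over all 3 Mb, WT lay below and Dnmt3l KO above on 8 autosomes, the reverse held on 3, and both libraries lay on the same side on the other 8. With like windows chosen by GC content instead of CpG density, Dnmt3l KO lay below over all 3 Mb, at -0.0108.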

How the results depend on the processing

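No paired analysis was possible because each genotype has 1 library, so no pairs exist. The report's main differences were computed again under other settings, of which the comparison of the last 100 kb, the match on masked share, the omission of single autosomes and the variants of the last 1 kb were added after seeing the data. Of 117 values obtained in this way, 41 stayed within the spread taken as error, 74 moved beyond it and 2 changed sign. For levels and their differences that spread was the counting error of the calls only, such as 0.000879 for the WT ends minus like windows. The SD of that value between autosomes was 0.0432, so a value counted as moved can lie well within the spread between autosomes. The cause was not tested for any of the changes.

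For the pooled difference WT minus Dnmt3l KO (0.369) the values were 0.359 with at least 300 calls per window, 0.375 as a mean of site levels, 0.363 at sites with a call in all 3 libraries and 0.405 without CpG-dense tiles. For WT minus Pld6 KO (-0.0274) they were, in the same order, -0.0294, 0.00246, -0.0300 and -0.0184, so that its sign depends on how calls are averaged. The count of windows at least 0.3 lower in Dnmt3l KO (445 of 570, 78.1%) became 892 of 1119 (79.7%) with 50-kb windows. Under each setting the share at the ends (74.9% to 91.2%) was below that of all autosomal windows (88.0% to 96.2%).

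The last 1 Mb minus 2 to 3 Mb gave, for WT, -0.0801 with at least 300 calls, -0.0519 as a mean of site levels, -0.0550 without sites of more than 20 calls and -0.0517 without dense tiles. For Pld6 KO these were -0.0944, -0.0715, -0.0731 and -0.0704, and Dnmt3l KO gave -0.0839 with at least 300 calls.

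The 3-Mb ends minus like windows gave, for WT, -0.0341 with at least 300 calls, -0.0227 with 50-kb windows, -0.0236 as a mean of site levels, -0.0244 both without sites of more than 20 calls and at sites called in all 3 libraries, -0.0133 without dense tiles, -0.0283 with density within 20%, -0.0230 matched on GC content and -0.0318 matched on masked share as well. For Pld6 KO they were -0.0278, -0.0161, -0.0187, -0.0168 (without sites of more than 20 calls), -0.00740 (without dense tiles), -0.0198 (density within 20%), -0.0203 (GC content), -0.0199 (gene share) and -0.0244 (masked share). Dnmt3l KO gave 0.00599 with at least 300 calls, 0.0147 without dense tiles, -0.0108 matched on GC content, 0.00465 on gene share and 0.00436 on masked share. With 1 autosome left out at a time the ranges were -0.0284 to -0.0199, -0.0206 to -0.0132 and 0.00388 to 0.0140.

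The last 100 kb minus like windows stayed negative in all 3 libraries under each of these settings. WT gave -0.167 with at least 300 calls, -0.150 with 50-kb windows, -0.119 as a mean of site levels, -0.139 without sites of more than 20 calls, -0.170 at sites called in all 3 libraries, -0.142 without dense tiles, and -0.148, -0.145 and -0.140 matched on GC content, gene share and masked share. Pld6 KO gave, in that order, -0.171, -0.154, -0.135, -0.143, -0.182, -0.146, -0.153, -0.152 and -0.129. Dnmt3l KO gave -0.0968, -0.0839 and -0.0640 for the last 3. Without 1 autosome the ranges were -0.165 to -0.141 and -0.170 to -0.144, and the lowest value for Dnmt3l KO was -0.119. The 19 of 19 autosomes below in WT did not hold under every setting. It was 18 of 19 as a mean of site levels, without sites of more than 20 calls and matched on GC content. Matched on gene share it was 17 of 18.

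Depth limits the outermost kilobases most, where Dnmt3l KO had 216 calls in the last 1 kb of all 19 autosomes together. A level in 1 library per genotype has no replicate error, and unique mapping leaves out near-identical repeats.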

Other observations

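The end of the X chromosome, which was not part of the comparison of autosomes, was lower at its tip as well. Its 4 windows of the last 1 Mb that had enough calls were at 0.641 in WT, while Pld6 KO was at 0.631 and Dnmt3l KO at 0.202. The 10 windows at 2 to 3 Mb were at 0.791, 0.787 and 0.252. Interior windows of the X chromosome (1418) were at 0.707, 0.679 and 0.205. On the Y chromosome 2 windows of the last 3 Mb had enough calls, at 0.676, 0.692 and 0.270, and 32 interior windows were at 0.493, 0.405 and 0.102.

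The opposite ends, which hold the first 3 Mb of the listed autosomal positions and lie next to the centromere, were at a mean of 0.714 in WT over 545 windows, while Pld6 KO was at 0.706 and Dnmt3l KO at 0.256, compared with 0.717, 0.726 and 0.292 over the 570 distal windows. The stretch from 3 to 6 Mb before the distal end, with 559 windows, was at 0.740, 0.751 and 0.311.

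The distal ends also differed in their genes. They held 726 protein-coding genes, 132 of them in the last 500 kb, from 3 on chromosome 17 to 130 on chromosome 10, and 62 of the 64 olfactory and vomeronasal receptor genes were on chromosome 10.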
